A study of Rattus norvegicus with 5 samples.

Results

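Transcripts of red blood cell precursors were followed through primary cultures of the embryonic rat hypothalamus. They were read from the probe sets annotated to 1 gene only, where that gene was *Hbb* or *Alas2* or had a symbol starting with Hba or Hbb. The rule found 4 of the 8740 probe sets analysed, or 4 of 4736 genes, 1 each for *Hbb*, *Hbb-b1*, *Hba-a3* and *Alas2*. These genes were picked because earlier results of the same arrays had drawn attention to them, so they were in effect chosen by their signals in all 3 comparisons, and these signals are described without a test.

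Hypothalami were taken from Wistar rat embryos at embryonic day 17, and the dissociated cells were grown in medium with fetal bovine serum. GFP+ cells came from cultures transfected with polyethylenimine 24 h after seeding. The plasmid carried a GFP gene behind the promoter of *Trh*, which encodes the precursor of thyrotropin-releasing hormone, and 48 h later the fluorescent cells were sorted. GFP+/- cells came from cultures transfected in the same way and went through the sorter without selection, so that they held fluorescent and non-fluorescent cells together. NT cells were not transfected. The RNA of GFP+ cells was a pool of 6 experiments, and the RNAs of GFP+/- and NT cells were pools of 3 experiments each. Affymetrix rat expression arrays were hybridized, 2 with GFP+, 2 with GFP+/- and 1 with NT RNA. By the methods of the study, paired arrays took aliquots of the same RNA pool. The labels number them as biological replicates. The spread between them, and every p-value below, may therefore cover technical error only, and with 1 array the NT population has no spread of its own. GFP marks cells in which the transfected promoter fragment was active, so the sorted population is a model of TRH neurons only as far as that fragment follows the gene.

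Hemoglobin, the oxygen carrier of red cells, is built from alpha-like and beta-like globin chains, each holding a heme group. *Hbb* and *Hbb-b1* encode beta chains and *Hba-a3* an alpha chain, whereas *Alas2* encodes the erythroid form of 5-aminolevulinate synthase, the enzyme of the first step of heme synthesis. In late gestation the rat fetus makes red cells in the liver, and young red cells keep globin mRNA after they have lost the nucleus. Brain dissected without perfusion carries blood, and globin transcripts have also been described in some neurons and glial cells of rodents. In erythroid precursors these genes are switched on by factors such as GATA1, which binds GATA motifs, and beta-globin promoters also by KLF1, which binds CACCC boxes.

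The bases in front of a listed start of each gene are shown because the globins and *Alas2* are textbook cases of erythroid promoters. Their array signals also differed in pattern. Each run holds the 250 bases 5′ to 3′ before the start listed in RefSeq, assembly GRCr8. Capitals mark the CACCC box, the CCAAT box, the TATA box ATAAA and a GATA hexamer, which is AGATAA or AGATAG or TGATAA or TGATAG, each searched on both strands. A GATA hexamer ending in AA can overlap ATAAA. The windows were chr1:167663722-167663971 for *Hbb*, chr1:167643521-167643770 for *Hbb-b1* and chr10:15816944-15817193 for *Hba-a3*, all on the minus strand, and chrX:22895200-22895449 on the plus strand for *Alas2*. For *Hbb-b1* the listed start lay inside the annotated span of the gene, which ends at 167643577, so its window covers part of it. The whole *Alas2* window lay inside the gene, which spans 22890650 to 22914046. It is therefore not sequence in front of the annotated gene, and its motifs and identities are not read as those of a promoter.
Hbb: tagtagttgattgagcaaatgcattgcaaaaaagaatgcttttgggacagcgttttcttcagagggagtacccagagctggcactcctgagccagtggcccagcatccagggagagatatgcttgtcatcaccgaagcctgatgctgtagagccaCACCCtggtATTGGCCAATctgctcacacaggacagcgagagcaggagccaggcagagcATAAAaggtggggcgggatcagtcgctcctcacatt
Hbb-b1: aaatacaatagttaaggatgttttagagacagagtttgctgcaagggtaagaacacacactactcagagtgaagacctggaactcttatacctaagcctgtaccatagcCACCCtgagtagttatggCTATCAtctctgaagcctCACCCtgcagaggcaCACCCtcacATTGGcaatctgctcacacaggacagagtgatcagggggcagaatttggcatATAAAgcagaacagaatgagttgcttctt
Hba-a3: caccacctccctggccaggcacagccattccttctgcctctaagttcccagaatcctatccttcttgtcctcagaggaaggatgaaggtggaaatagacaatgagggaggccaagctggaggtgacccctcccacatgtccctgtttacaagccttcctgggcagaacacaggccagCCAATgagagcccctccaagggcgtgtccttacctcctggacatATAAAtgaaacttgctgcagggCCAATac
Alas2: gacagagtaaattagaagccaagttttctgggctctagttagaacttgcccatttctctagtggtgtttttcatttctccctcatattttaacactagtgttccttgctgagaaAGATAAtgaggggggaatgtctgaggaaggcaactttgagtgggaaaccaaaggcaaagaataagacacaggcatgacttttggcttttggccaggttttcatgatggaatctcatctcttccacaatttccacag
Counted back from the base before the listed start, *Hbb* had CACCC from position -95, CCAAT from -86 on the other strand and from -81, and ATAAA from -36. *Hbb-b1* had CACCC from -141, -105 and -90, a GATA hexamer from -123 and CCAAT from -81, both of these on the other strand, and ATAAA from -29. *Hba-a3* had CCAAT from -73 and -7 and ATAAA from -29, and none of its letters matched CACCC or a GATA hexamer. The *Alas2* window, inside the gene, had AGATAA from -136 and none of the other 3 motifs. Among 33469 windows of this length in the table, CACCC was present in 49.2%, CCAAT in 34%, ATAAA in 39.3% and a GATA hexamer in 27%, and the first 3 were present together in 5.5%. The upstream bases of *Hbb* and *Hbb-b1* were identical in 171 of 281 aligned columns (60.9%). *Hba-a3* had 46.8% with *Hbb* and 49.8% with *Hbb-b1*. The pairs with the *Alas2* window, inside the gene, had 48.6% to 51.5%. *Hbb* and *Hbb-b1* lie in one cluster on chromosome 1, in the order *Hbb-bs*, *Hbb-b1*, *Hbbl1*, *Hbb-b2*, *Hbb*, *Hbg1*, *Hbe2* and *Hbe1*. *Hba-a3* lies in the alpha cluster on chromosome 10 and *Alas2* on the X chromosome.

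The values are MAS 5.0 signals, a linear intensity made by the authors for each probe set and scaled on each array. The 2%-trimmed mean of the deposited signals was 501 on each of the 5 arrays. The neuronal markers *Mapt* (7321 to 12752) and *Gap43* (6008 to 11030) were bright on every array, so transcripts of the labelled tissue were present. The NT array stood apart. Over all probe sets, with more than a 2-fold difference and no overlap between arrays counted, 1187 were higher and 1076 lower in GFP+ than in NT cells, and 990 were higher and 1327 lower in GFP+/- than in NT cells. Its 3′ over 5′ ratio, which is higher for shorter RNA, was 5.45 for the *Gapdh* control against 12.7 to 17.6 on the other arrays, and 10.9 for the *Actb* control against 14.4 to 31.4. Transfection, passage through the sorter where it applied, the RNA pool and the array cannot be told apart in any comparison with NT cells.

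Beta-globin signals were highest in GFP+/- cells, intermediate in GFP+ cells and lowest in NT cells. The *Hbb* probe set had signals of 3072 and 3385 on the GFP+ arrays, 8361 and 5760 on the GFP+/- arrays and 254 on the NT array. All 3 populations were apart, with the lowest array of the higher population above the highest of the lower one. The GFP+ arrays averaged 3229 ± 221 (SD, n = 2 arrays) and the GFP+/- arrays 7060 ± 1839 (SD, n = 2), which puts sorted cells 2.19-fold below unselected ones (log2 ratio -1.13). The *Hbb-b1* probe set had 3127 and 3126 on the GFP+ arrays, 6265 and 4217 on the GFP+/- arrays and 208 on the NT array, and the populations were again apart. The GFP+ arrays averaged 3127 ± 0.629 (SD, n = 2) and the GFP+/- arrays 5241 ± 1448 (SD, n = 2), a 1.68-fold lower signal after sorting (log2 ratio -0.75). Both GFP+/- means rested on a bright first and a dimmer second array. Without the brighter one the log2 ratios of GFP+ over GFP+/- cells were -0.84 for *Hbb* and -0.43 for *Hbb-b1*, both short of 2-fold.

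The alpha-globin probe set of *Hba-a3* was dimmer and followed the same order. Its signals were 100.5 and 112 on the GFP+ arrays, 447 and 356 on the GFP+/- arrays and 44.7 on the NT array, with no overlap. The GFP+ arrays averaged 106 ± 8.01 (SD, n = 2) and the GFP+/- arrays 401 ± 64.4 (SD, n = 2), a 3.78-fold lower signal after sorting (log2 ratio -1.92). *Alas2* was ordered differently. Its signals were 429.8 and 325 on the GFP+ arrays, 308 and 231 on the GFP+/- arrays and 127 on the NT array, so GFP+ cells were highest. The GFP+ arrays averaged 378 ± 73.9 (SD, n = 2) and the GFP+/- arrays 269 ± 54.4 (SD, n = 2), a 1.40-fold higher signal after sorting (log2 ratio 0.49). The lowest GFP+ array exceeded the highest GFP+/- array by 0.080 on the log2 scale, so the neighbouring populations were barely separated.

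**Figure D1:**
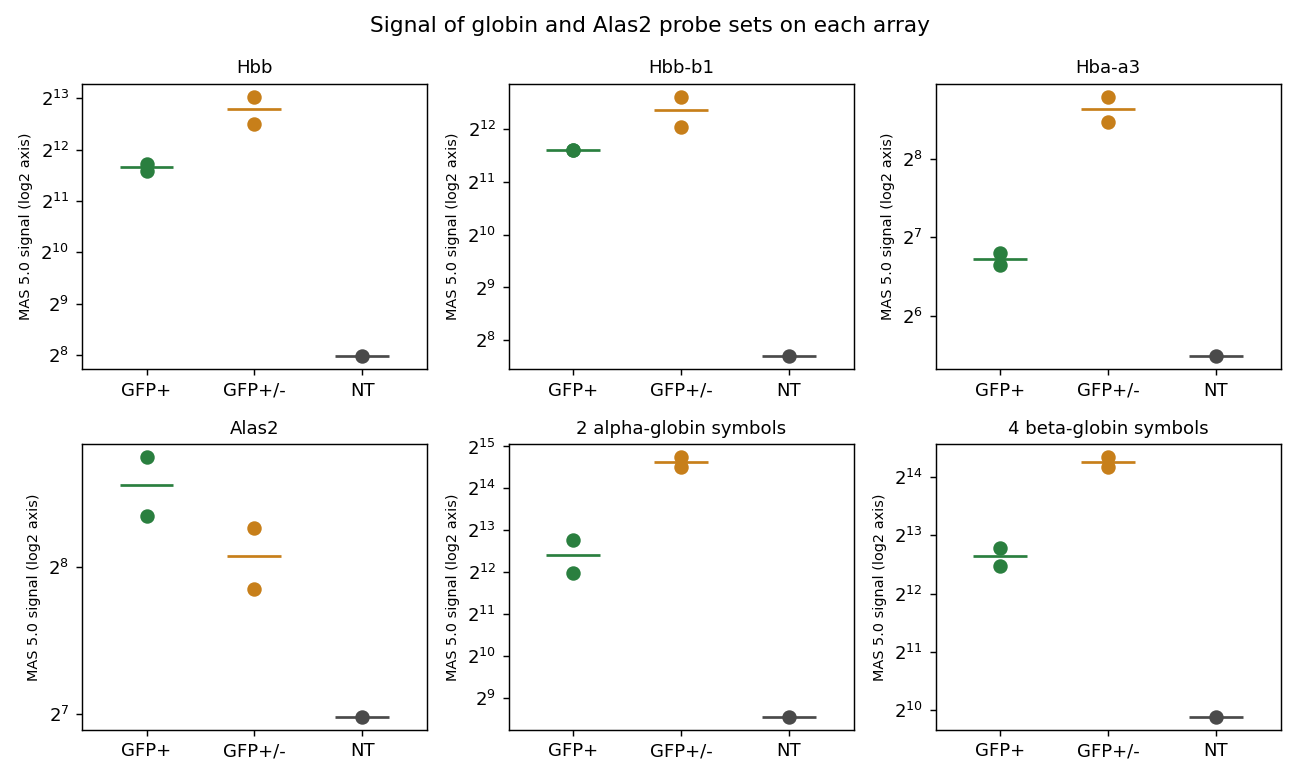
MAS 5.0 signal (y axis, log scale, with a range of its own in each panel) in GFP+, GFP+/- and NT cells (x axis) for the 4 members and for the 2 probe sets annotated to several globin genes; each point is 1 array and each line the mean of a population. The 3 globin probe sets are highest on the GFP+/- arrays (for *Hbb* 5760 and 8361), whereas *Alas2* is highest on the GFP+ arrays, and all 6 probe sets are lowest on the NT array.

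Against NT cells, the averaged signal of *Hbb* was 12.7-fold higher in GFP+ cells (log2 ratio 3.67) and 27.8-fold higher in GFP+/- cells (log2 ratio 4.80). For *Hbb-b1* the signal was 15.0-fold higher in GFP+ (log2 ratio 3.91) and 25.1-fold higher in GFP+/- cells (log2 ratio 4.65). *Hba-a3* had log2 ratios of 1.25 (2.37-fold) and 3.17 (8.97-fold), and *Alas2* of 1.58 (2.98-fold) and 1.09 (2.13-fold). Without the first GFP+/- array, *Alas2* had a log2 ratio of 0.87 over NT cells, short of 2-fold. The ratio of GFP+/- over NT cells was the 10th highest of 8740 probe sets for *Hbb*, the 14th for *Hbb-b1*, the 63rd for *Hba-a3* and the 920th for *Alas2*. In bulk RNA, fewer cells of a type and less RNA per cell cannot be told apart, and both comparisons share the NT array.

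Counted at 2-fold with no overlap between arrays, 4 of 4 members were higher in GFP+ than in NT cells, where 13.6% of all probe sets were. In GFP+/- against NT cells 4 of 4 were higher, where 11.3% of all probe sets were. In GFP+ against GFP+/- cells 2 of 4 were lower (*Hbb* and *Hba-a3*), where 3.31% of all probe sets were, and no member was 2-fold higher, where 7.35% were. These contrasts were in view when the members were picked, so nothing is read from the counts. The median log2 ratio of the 4 members was -0.94 for GFP+ over GFP+/-, 2.62 for GFP+ over NT and 3.91 for GFP+/- over NT cells, beside 0.13, 0.088 and -0.070 over all probe sets.

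**Figure D2:**
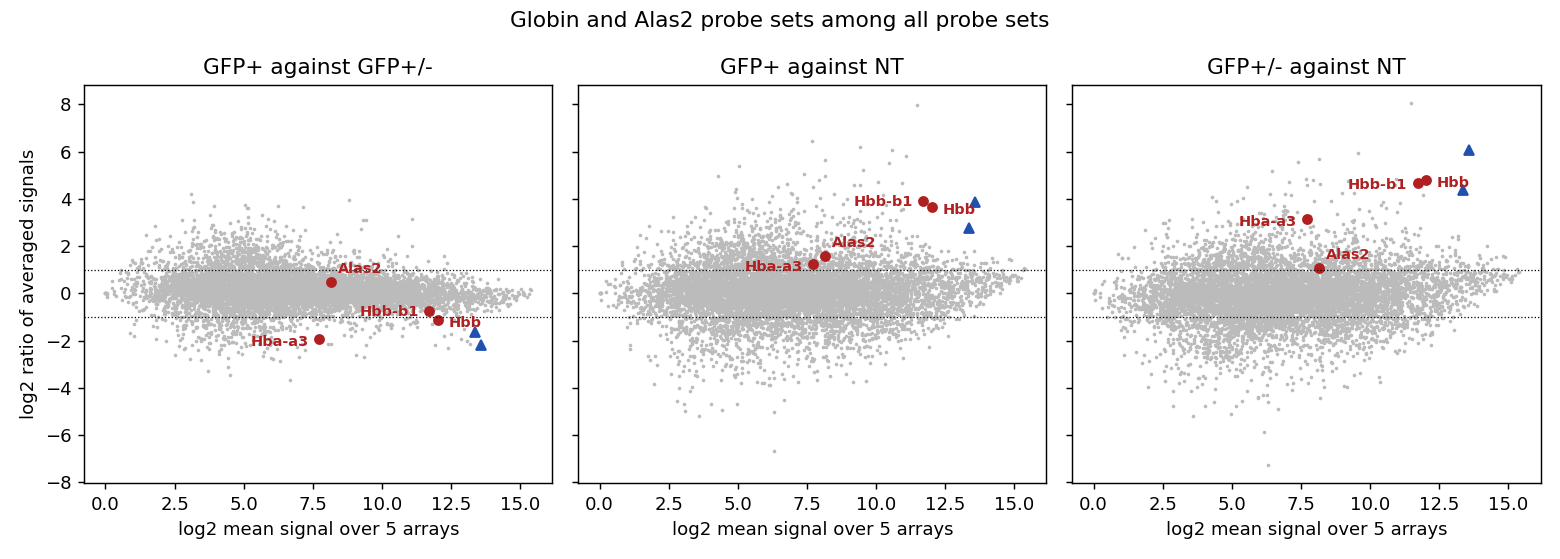
The log2 ratio of averaged signals (y axis) against the log2 mean signal over the 5 arrays (x axis) for all 8740 probe sets (grey), in 1 panel for each comparison; dotted lines mark 2-fold, red points are the 4 members and blue triangles the globin probe sets annotated to several globin genes. In GFP+/- against NT cells *Hbb* (4.80) and *Hbb-b1* (4.65) lie near the top of the cloud, and in GFP+ against GFP+/- cells the globins lie below 0 and *Alas2* (0.49) above.

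The globin values come from probe sets that cannot be tied to 1 transcript each. The *Hbb* and *Hbb-b1* probe sets carry the array's suffix for probes shared within a sequence family, so transcripts of one beta globin can add to the signal of the other. Of 4 probe sets left out by the rule because they carry several symbols, 2 hold globin symbols only and gave the same order of populations. The other 2 also carry symbols of unrelated genes, so their signals cannot be tied to globins. They were highest in GFP+ cells, with log2 ratios of 2.44 and 0.71 for GFP+ over GFP+/- cells, and are not described further. The one for *Hba-a1* and *Hba-a2* had 4014 and 6907 on the GFP+ arrays, 23203 and 27372 on the GFP+/- arrays and 373 on the NT array. Its log2 ratios were -2.21 for GFP+ over GFP+/-, 3.87 for GFP+ over NT and 6.08 for GFP+/- over NT cells, the last being the 2nd highest of 8740. The one for *Hbb*, *Hbb-b1*, *Hbb-bs* and *Hbbl1* had 5706 and 7038 on the GFP+ arrays, 18496 and 20693 on the GFP+/- arrays and 946 on the NT array, with log2 ratios of -1.62, 2.75 and 4.37. Both were chosen for display after their values were seen. On both, the second GFP+/- array was the brighter one, whereas for the members it was the first.

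The 4 members fell into close and distant pairs. After each probe set was centred on its own mean over the 5 arrays, the log2 signals of *Hbb* and *Hbb-b1* differed by a root mean square of 0.18. *Hba-a3* differed from *Hbb* by 0.89 and from *Hbb-b1* by 0.99, and *Alas2* differed from the 3 globins by 1.14 to 1.37. Over 5 arrays in 3 populations, these distances mostly measure the population means.

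**Figure D3:**
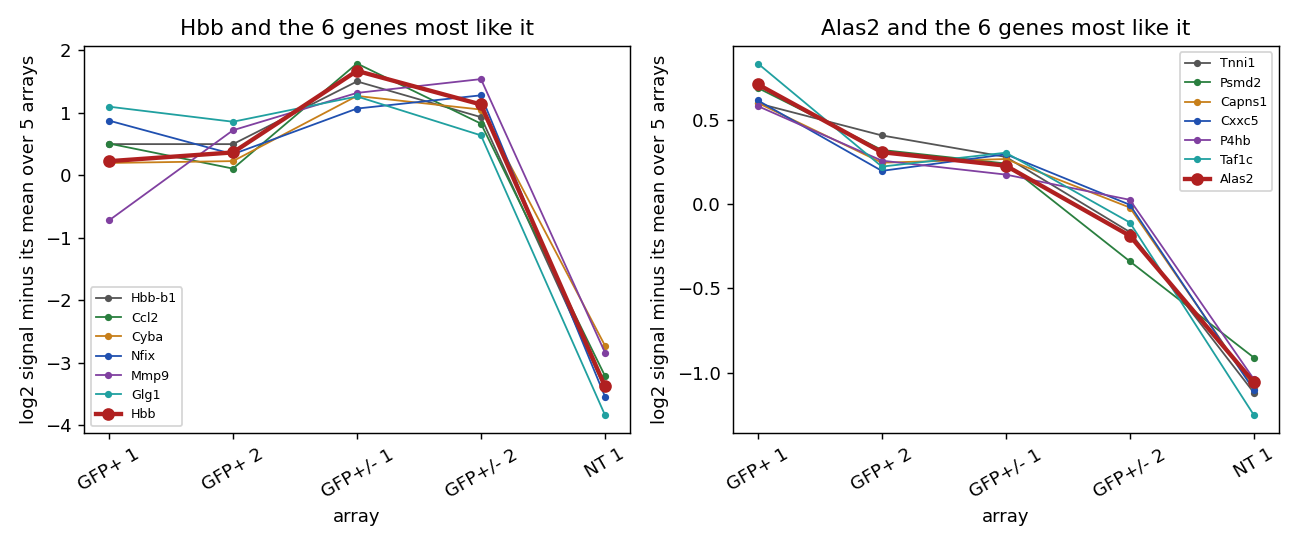
Centred log2 signals (y axis) over the 5 arrays (x axis) of *Hbb* with the genes nearest to it, and of *Alas2* with the genes nearest to it; each line is 1 probe set, centred on its own mean. *Hbb-b1* follows *Hbb* to within a root mean square of 0.18 and *Ccl2* to within 0.24, and the 6 genes drawn with *Alas2* lie within 0.12 of it.

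Of 2950 probe sets with 1 gene among the brightest 41% by mean signal over the 5 arrays, 4 lay within a root mean square of 0.5 log2 of *Hbb* and 47 within 1. After *Hbb-b1* the nearest was *Ccl2*, which encodes a chemokine that attracts monocytes (0.24), with 1752 and 1327 on the GFP+ arrays, 4256 and 2185 on the GFP+/- arrays and 133 on the NT array. Next were *Cyba* (0.35), a subunit of the phagocyte NADPH oxidase, *Nfix* (0.41), a transcription factor, *Mmp9* (0.57), a secreted gelatinase, and *Glg1* (0.57), a Golgi protein. *Cyba* had 318 and 325 on the GFP+ arrays, 669 and 576 on the GFP+/- arrays and 42.1 on the NT array. None of the 5 belongs to the red cell lists below. For *Alas2*, compared with probe sets of any brightness, 1368 of 7005 lay within 0.5 and 5473 within 1. Its centred log2 signals spanned only -1.06 to 0.71, against -3.38 to 1.67 for *Hbb*. A probe set that does not change at all also lies within 1 of *Alas2*, though not within 0.5. The count within 1 therefore does not show a shared pattern. With so narrow a span and probe sets of any brightness, neither count can be set against those of *Hbb*. The nearest were *Tnni1* (0.08), *Psmd2* (0.10), *Capns1* (0.10), *Cxxc5* (0.11), *P4hb* (0.12) and *Taf1c* (0.12), which encode among others a troponin subunit, a proteasome subunit, a calpain subunit and a protein disulfide isomerase. *Psmd2*, for example, had 10364 and 8035 on the GFP+ arrays, 7600 and 5086 on the GFP+/- arrays and 3426 on the NT array.

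Other genes of red cells and of heme and iron metabolism were read from 6 lists of 106 genes, of which 47 had a probe set with 1 gene. They were tested with limma on log2 signals in one fit of all 5 arrays, with p-values adjusted by Benjamini-Hochberg over all 8740 probe sets, and the brightest probe set stood for its gene. In GFP+ against GFP+/- cells none of the 47 passed (before adjustment, 1 higher and 4 lower had a p under 0.05), where 0.0% of all probe sets passed in either direction. In GFP+ against NT cells 3 were higher and none lower, where 4.38% of all probe sets were called higher and 4.06% lower. In GFP+/- against NT cells 4 were higher and none lower, where 4.2% and 5.03% were. The median log2 ratios of the 47 genes were -0.015, 0.13 and 0.26 in the same order. With any single array of the transfected populations removed, no listed gene passed in GFP+ against NT cells, and 0 to 2 passed in GFP+/- against NT cells.

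Of the other globins, the embryonic and fetal chains were measured. *Hbe1*, an embryonic beta-like chain, had 476 and 990 on the GFP+ arrays, 967 and 864 on the GFP+/- arrays and 244 on the NT array, and did not pass in any comparison (adjusted p = 0.0996 in GFP+ and 0.0544 in GFP+/- against NT cells). Its GFP+ arrays overlapped the GFP+/- arrays. *Hbe2* had 195 and 307, 224 and 179.8, and 222, with NT cells inside the range of the others. *Hbg1*, a gamma-like chain, rose in GFP+/- against NT cells (log2 difference 3.36, SE 0.68, adjusted p = 0.0396) and missed the threshold in GFP+ cells (adjusted p = 0.0541), at dim signals of 47.1 and 119, 106 and 83.3, and 9.12. A second, dimmer *Hbg1* probe set, with 7.15 to 19.2 on the 5 arrays, did not pass (adjusted p = 0.957). Both *Hbg1* probe sets carry the same suffix for shared probes as those of *Hbb* and *Hbb-b1*. Transcripts of these brighter beta globins can therefore add to the *Hbg1* signal, and the rise cannot be tied to *Hbg1* alone. None of the 3 was lower in GFP+ than in GFP+/- cells by 2-fold (log2 ratios -0.32 for *Hbe1*, 0.31 for *Hbe2* and -0.19 for *Hbg1*).

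Of the heme synthesis list 5 genes of 15 were measured besides *Alas2*, and none passed in any comparison. *Alas1*, the housekeeping form of the synthase, had 415 and 259 on the GFP+ arrays, 249.1 and 173 on the GFP+/- arrays and 173 on the NT array, an order of means like that of *Alas2*. A second *Alas1* probe set did not share it, with 380 and 215, 179 and 191, and 191. By it the average of GFP+/- cells was not above NT cells (log2 ratio -0.041). *Urod* and *Ppox* encode enzymes further along the pathway. In the same order of arrays *Urod* had 411 and 420.1, 454 and 444, and 256, and *Ppox* had 368 and 373, 502 and 359, and 191. Their log2 ratios of GFP+/- over NT cells were 0.81 (adjusted p = 0.0812) and 1.17 (adjusted p = 0.0653). A second *Ppox* probe set had 0.46. *Abcb6*, a porphyrin transporter, had 734 to 894 over the 5 arrays.

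By their medians, the lists of red cell membrane genes and of erythroid regulators did not follow the globins. The median log2 ratios were 0.094, 0.12 and 0.033 for the membrane list and -0.0045, -0.25 and 0.25 for the regulators. They are given in the order GFP+ over GFP+/-, GFP+ over NT and GFP+/- over NT cells. Of 11 membrane genes measured of 23 none passed. *Slc4a1*, the anion exchanger that is the main membrane protein of red cells, had 401 and 394 on the GFP+ arrays, 378 and 419 on the GFP+/- arrays and 414 on the NT array, with NT cells inside the range of the others. *Rhag* had 99.7 and 117, 72.7 and 49.7, and 66.5, highest in GFP+ cells. The water channel gene *Aqp1* had 6.54 and 25.8, 116 and 109, and 80.2, lower in GFP+ than in GFP+/- cells with no overlap (log2 ratio -2.80) without passing the test (adjusted p = 0.184). Of the brightest genes of the list, *Add1* had 2239 and 1125, 849 and 652, and 1690, and *Cd59b*, *Slc2a1* and *Epb41* differed by less than 2-fold in all 3 comparisons. *Slc2a1*, with 1202 and 1379, 1765 and 1851, and 1189, had the order of the globins with no overlap. It did not pass (adjusted p = 0.288 in GFP+ against GFP+/- and 0.130 in GFP+/- against NT cells). A dimmer *Slc2a1* probe set had log2 ratios of -0.34, -0.22 and 0.11.

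All 8 regulators measured of 18 lay outside the brightest 41%, with a signal of at most 221 on any array. *Gata1*, the master regulator of red cell genes, had 65.9 and 64.6 on the GFP+ arrays, 40.5 and 44.7 on the GFP+/- arrays and 32.4 on the NT array, and did not pass (adjusted p = 0.285 in GFP+ and 0.699 in GFP+/- against NT cells). *Epor*, the erythropoietin receptor, had 30.4 and 9.92, 14.8 and 15.4, and 25.2, with NT cells inside the range of GFP+ cells. *Kit*, a receptor of early blood progenitors, had log2 ratios of 1.16, -0.57 and -1.72, and its ligand *Kitlg* of -1.70, -1.34 and 0.36, in the order GFP+ over GFP+/-, GFP+ over NT and GFP+/- over NT cells. Neither passed, and a second *Kitlg* probe set had the opposite sign in each (1.86, 0.86 and -0.99). *Stat5b*, *Jak2* and *Stat5a*, which carry the signal of the receptor, did not differ by 2-fold in any comparison by their brightest probe sets. In the same order, a dimmer *Jak2* probe set (7.75 to 59.8 on the 5 arrays) had log2 ratios of -1.65, -2.80 and -1.15. A dimmer *Stat5a* probe set (10.1 to 46.5) had 1.16, 1.11 and -0.048, and neither passed. Another *Jak2* probe set stayed short of 2-fold.

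Among 10 red cell enzymes measured of 20, *Gpx1*, a glutathione peroxidase that many tissues make, was the only one that passed. It rose in GFP+ cells (log2 difference 1.08, SE 0.23, adjusted p = 0.0481) and in GFP+/- cells (1.44, SE 0.23, adjusted p = 0.0244) against NT cells. Its signals were 3235 and 3454, 4846 and 3796, and 1577. A second, bright *Gpx1* probe set had log2 ratios of 0.30 and 0.57 and did not pass. *Prdx2*, *Bnip3l* and *Pgk1*, which many cells also make, differed by less than 2-fold in all comparisons. *Tfrc*, the transferrin receptor that feeds iron to red cell precursors, was dim and had 7.96 and 14.8, 30.9 and 6.68, and 119, highest in NT cells without passing the test (adjusted p = 0.106 and 0.138). *Aldoa* had 26.1 and 50.4, 24.6 and 26.5, and 125, also without passing.

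Heme and iron handling had 10 genes measured of 20, of which 2 rose against NT cells in both populations. *Cp*, the copper oxidase ceruloplasmin that astrocytes also make, had 592 and 568 on the GFP+ arrays, 483 and 380 on the GFP+/- arrays and 71.1 on the NT array. Its log2 differences were 3.03 (SE 0.26, adjusted p = 0.00808) and 2.59 (SE 0.26, adjusted p = 0.0109). A dimmer probe set for the gene had log2 ratios of 2.95 and 3.32 without passing, and the dimmest -0.058 and -0.11. *Hmox1*, the heme-degrading oxygenase that is also a stress gene, had 868 and 861, 806 and 968, and 433. Its log2 differences were 0.996 (SE 0.22, adjusted p = 0.0492) and 1.03 (SE 0.22, adjusted p = 0.0432). Its second probe set was dim, with 8.06 to 23.7 on the 5 arrays, and did not pass. *Slc11a2*, an iron transporter, had log2 ratios of 1.01 and 0.98 (adjusted p = 0.0952 and 0.0964), and *Aco1* and *Blvra* differed by less than 2-fold. A dimmer *Slc11a2* probe set (633 to 939 on the 5 arrays) had 0.090 and 0.22, and the dimmest -0.14 and -0.41. In GFP+ over GFP+/- cells, where the globins among the members had log2 ratios of -0.75 to -1.92, *Cp* had 0.43 and *Hmox1* -0.037.

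By the ratio of averaged signals, 2 of the 47 genes were 2-fold higher and 2 lower with no overlap in GFP+ against GFP+/- cells (*Kit* and *Add1*, and *Aqp1* and *Kitlg*). Against NT cells 6 were higher and 4 lower in each transfected population. The higher ones were *Hbg1*, *Cp*, *Hbe1*, *Gpx1*, *Gata1* and *Slc11a2* in GFP+ cells, and *Hbg1*, *Cp*, *Hbe1*, *Gpx1*, *Ppox* and *Hmox1* in GFP+/- cells. Each is counted by its brightest probe set. The other probe sets of *Hbg1*, *Gpx1*, *Slc11a2*, *Ppox* and *Hmox1* were less than 2-fold higher against NT cells. The lower ones were *Tfrc*, *Aqp1*, *Aldoa* and *Kitlg* in GFP+ cells, and *Tfrc*, *Aldoa*, *Kit* and *Add1* in GFP+/- cells. The shares, 12.8% higher and 8.51% lower, stand beside 13.6% and 12.3% of all probe sets in GFP+ cells and 11.3% and 15.2% in GFP+/- cells.

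**Figure D4:**
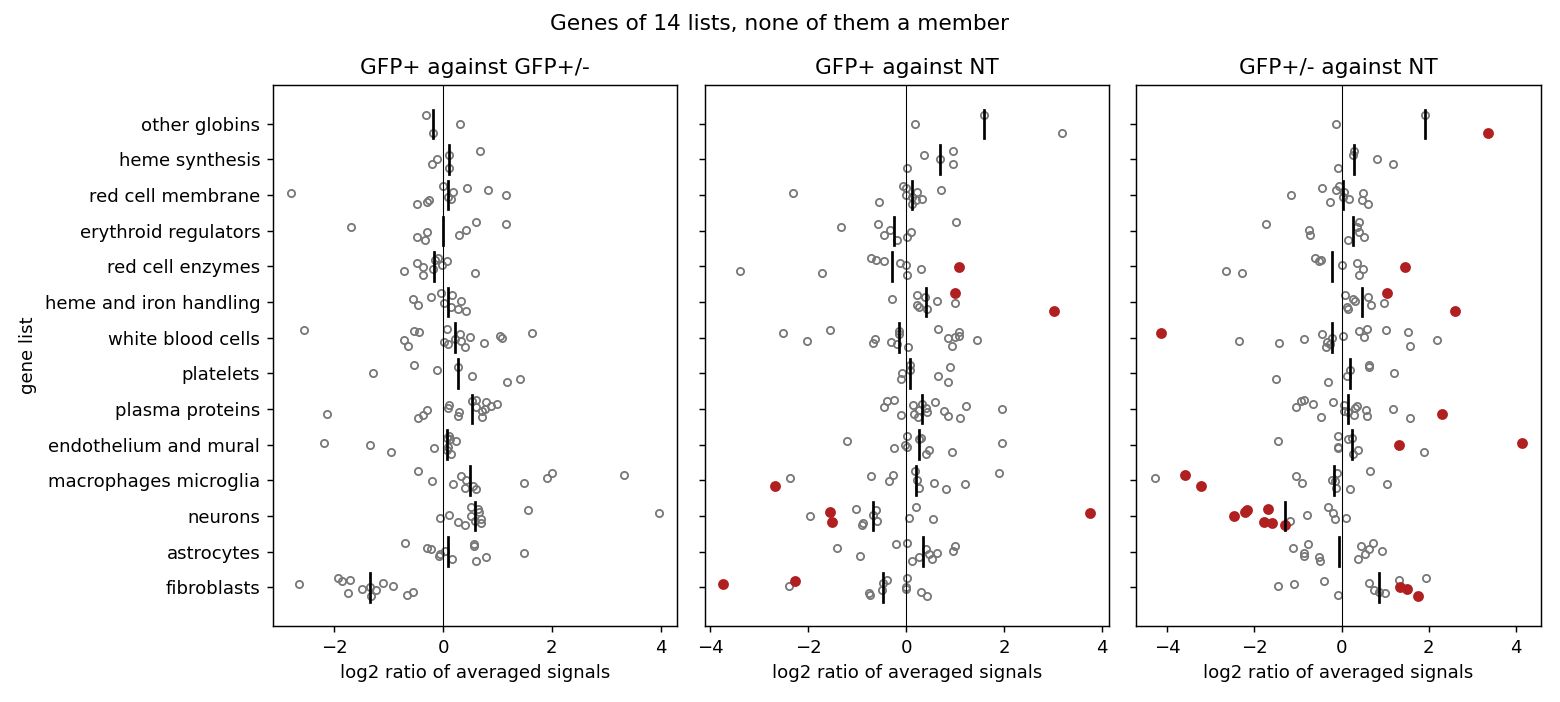
The log2 ratio of averaged signals (x axis) of each gene of 14 lists (rows), with 1 panel for each comparison; each circle is a gene, by its brightest probe set, filled red where limma called it, and each bar is the median of its list. The medians of the 6 red cell, heme and iron lists lie between -0.19 and 0.10 in GFP+ against GFP+/- cells, whereas the fibroblast median is -1.35, and the neuron median is -1.30 in GFP+/- against NT cells.

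Markers of the other cells that embryonic tissue with blood and meninges could hold were read from the same fit. White blood cell markers (17 measured of 26) did not order the arrays as the globins did. Their summed signal was 1264 to 1749 in GFP+, 1317 to 1498 in GFP+/- and 1866 in NT cells. *Ptprc*, the pan-leukocyte marker, had 159.9 and 88.5, 119.7 and 115, and 79.0, and of the list *Cd8a* fell in GFP+/- against NT cells (log2 difference -4.18, SE 0.77, adjusted p = 0.0308). Platelet markers (7 of 14) summed to 860 to 993, 794 to 894 and 673, and none passed. Of plasma proteins (17 of 18), which mark liver and yolk sac cells, albumin (*Alb*) had 34.2 to 69.1 over the 5 arrays. *Ttr*, which the choroid plexus also makes, was the only bright one and rose in GFP+/- against NT cells (log2 difference 2.30, SE 0.35, adjusted p = 0.0226), with 2961 and 5060, 18147 and 17266, and 3587. Plasma proteins summed to 3814 and 6007, 18780 and 18138, and 4320, highest in GFP+/- cells. This sum rested largely on *Ttr*, and the median log2 ratio of the list was 0.53 in GFP+ against GFP+/- cells.

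The summed signals of fibroblast markers and of endothelial and mural markers were also highest in GFP+/- cells. Fibroblast markers (13 of 14) summed to 16155 and 22600 on the GFP+ arrays, 48087 and 46902 on the GFP+/- arrays and 21418 on the NT array. In GFP+ against GFP+/- cells 10 of 13 were 2-fold lower with no overlap, and none passed limma. In GFP+/- against NT cells *Bgn*, *Postn* and *Loxl1* rose, and in GFP+ against NT cells *Col3a1* and *Dcn* fell. Endothelial and mural markers (11 of 18) summed to 3015 and 5046, 10118 and 12406, and 2578. The brightest was *Acta2*, which encodes smooth muscle actin. *Acta2* had 1053 and 2375, 6561 and 9059, and 442, and rose in GFP+/- against NT cells (log2 difference 4.13, SE 0.49, adjusted p = 0.0143), as did *Tagln* (1.32, SE 0.29, adjusted p = 0.04995). The endothelial marker *Pecam1* had 80.8 and 150.5, 108 and 107, and 114. The sums of both lists were thus ordered between GFP+/- and GFP+ cells like the globins. The endothelial and mural sum rested largely on *Acta2*, and the median log2 ratio of that list was 0.078 in GFP+ against GFP+/- cells. Of its 11 genes 2 were 2-fold lower with no overlap in that comparison, where 3.31% of all probe sets were. The part of both lists, and of the plasma proteins, in the globin result was not tested.

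Macrophage and microglia markers (12 of 20) summed to 4367 and 2923 on the GFP+ arrays, 3027 and 2332 on the GFP+/- arrays and 3490 on the NT array. *Ctss* fell against NT cells in both populations (log2 differences -2.70, adjusted p = 0.0149, and -3.23, adjusted p = 0.0109), and *Itgam* in GFP+/- cells (-3.64, adjusted p = 0.0292). Neuron markers (13 of 18) summed to 33708 and 28504, 21697 and 23209, and 45433, the reverse of the order of the globins. Of them 7 fell in GFP+/- against NT cells (*Map2*, *Nefl*, *Nefm*, *Snap25*, *Uchl1*, *Ina* and *Elavl4*). In GFP+ against NT cells *Nefm* and *Uchl1* fell and *Nefh*, a neurofilament gene, rose (log2 difference 3.74, SE 0.47, adjusted p = 0.0152). Astrocyte markers (12 of 13) summed to 47968 and 46994, 44117 and 41130, and 41289, and none passed. What these shifts, or the higher 3′ over 5′ ratios of the transfected populations, contribute to the globin signals was not tested.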

How the data were processed

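RNA of 3 populations of cultured rat hypothalamic cells had been hybridized to 5 arrays. The deposited values are MAS 5.0 signals, linear intensities that the authors scaled by array. The deposited signals had a 2%-trimmed mean of 501. Detection calls were not used. Of 8799 probe sets, 59 controls were left out. By the platform annotation 7006 probe sets had a single gene, 308 more than one and 1426 no gene. Of the first, 6985 were found in RefSeq GRCr8 by gene ID. The arrays carry no read depth, so their number limits the precision.

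Signals under 1 were set to 1 before log2. Populations were compared by the ratio of averaged signals, the measure of the study, at 2-fold and with the arrays of both populations apart. Probe sets other than the members were tested with limma 3.58.1 in R 4.3.3, in one fit of 5 arrays with one mean per population and an intensity trend, adjusted by Benjamini-Hochberg at 0.05. For the lone NT array the spread of the other populations was assumed. The steps were tested on simulated data. The members and lists were chosen with earlier results of these data known.

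Genes named were the members, listed genes that passed, up to 4 of the highest mean signal in a list, up to 6 red cell genes a comparison past 2-fold with arrays apart, and the 6 most like *Hbb* (among the brightest 41%, 3583 probe sets) and *Alas2*. Further genes were named after their values were seen, as markers of a cell type (*Slc4a1*, *Rhag*, *Epor*, *Alb*, *Pecam1*). Alternatives were quantile normalization, equal medians, 16 added to each signal, the brightest 41%, no trend, a fit without the NT array, a replicate block, each array left out and 1.5-fold. Tables were made in Python with pandas.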

Additional observations from a re-analysis of the deposited data

How the results depend on the processing

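The 4 members kept the direction of every ratio under quantile normalization, equal medians, 16 added and with each array left out. The log2 ratio of GFP+ over GFP+/- cells was -1.37 to -0.84 for *Hbb*, -1.003 to -0.43 for *Hbb-b1*, -2.08 to -1.74 for *Hba-a3* and 0.27 to 0.71 for *Alas2*. Their median moved from -0.94 to -0.63 without the first and -1.19 without the second GFP+/- array. For GFP+/- over NT cells the ranges were 4.51 to 5.04, 4.34 to 4.91, 2.78 to 3.32 and 0.87 to 1.28.

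Counts moved more than the members. Over all probe sets, limma called 0 higher and 0 lower in GFP+ against GFP+/- cells (800 and 415 at an unadjusted p under 0.05), but 80 and 64 among the brightest 41%. In GFP+ against NT cells it called 383 and 355, and 598 and 535 among the brightest. In GFP+/- against NT cells the 367 higher became 588 among the brightest. Without the trend each NT comparison kept 1 higher and 1 lower. With 1 array left out, 1 higher and 0 lower were called in GFP+ against NT cells, and 1 to 158 higher and 0 to 175 lower in GFP+/- against NT cells. Of the listed genes, the 3 higher in GFP+ against NT cells became 1 with equal medians, 6 among the brightest and 0 without the trend or with any array left out, and 1 was lower with 16 added. The 4 higher in GFP+/- against NT cells became 7 among the brightest (with 1 lower), 0 without the trend and 0 to 2 with an array left out. The cause was not tested, except that fewer probe sets are adjusted for among the brightest and fewer arrays are in the fit when one is left out.

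At 1.5-fold the counts over all probe sets were 1364 higher and 629 lower, 2070 and 1833, and 1763 and 2275, in place of 642 and 289, 1187 and 1076, and 990 and 1327. Among the brightest 41% they were 104 and 73, 471 and 412, and 449 and 465. In GFP+ against GFP+/- cells 16 added gave 316 and 143, and leaving out an array gave 366 to 673 lower. Of the listed genes 5 were higher at 1.5-fold in that comparison, 1 with quantile normalization, equal medians, 16 added or only the brightest, where 0 were lower, and 1 to 3 higher and 2 to 5 lower with an array left out. Against NT cells 12 (GFP+) and 11 (GFP+/-) were higher and 7 lower (GFP+/-) at 1.5-fold, and among the brightest 0 (GFP+) and 1 (GFP+/-) were lower.

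The labels do not say whether GFP+ and GFP+/- arrays with the same replicate number belong together. Their deviations from the population means had a correlation of 0.063 over all and 0.20 over the brightest probe sets, which does not settle it. With the replicate block, limma called 0 higher and 0 lower in GFP+ against GFP+/- cells over all probe sets and 0 of the listed genes, as without it.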
